A study of Mus musculus with 6 samples.

Results

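Trp53, the mouse gene of the transcription factor p53, and 9 of its direct target genes were followed across 6 exon arrays of embryoid bodies that had been exposed to serum of a mouse model of Huntington's disease. The 10 genes were taken by name from the deposited table of 19613 genes, and each of them had 1 entry. They are Trp53, Mdm2, Cdkn1a, Ccng1, Btg2, Trp53inp1, Bax, Bbc3, Phlda3 and Fas. The embryoid bodies, which are aggregates of differentiating stem cells, came from HBG3 HB9 mouse embryonic stem cells (so spelled in the labels, HGB3 in the methods), in which the promoter of Hb9 (Mnx1), a gene of motor neurons, drives a fluorescent reporter, and differentiation was directed toward motor neurons. In the assay of the study, whole embryoid bodies were put into culture plates at day 6 of differentiation, kept in 5% serum for 24 h and collected for RNA without dissociation. That protocol is worded for sera of a different disease model, and its use for these arrays is taken from the methods as a whole. The serum donors carried the strain name B6CBA-Tg(HDexon1)62Gpb/3J, which denotes mice with a transgene of the first exon of the human huntingtin gene, and were male carriers aged 10 weeks. The sample labels name the donor fluid as plasma, but serum is the word of the methods and of the series title, and it is used here.

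All 6 arrays belonged to a single group and carried the replicate numbers 2, 4, 5, 6, 7 and 8. No control arrays were analysed here, so the values are levels, their spread between arrays and their covariation, and no response to serum could be measured. The labels do not say which arrays shared a mouse, a culture or a batch of differentiation. The spread can therefore hold differences between sera, cultures and arrays. A p-value below tells only how often re-pairing these 6 arrays gave a correlation at least as large in size. It takes the arrays as exchangeable, which the labels cannot show. All 8 motor neuron markers of a chosen list (such as Isl1 and the choline transporter Slc5a7) were above background, as were all 7 proliferation markers. Of 6 pluripotency markers, 2 (Nanog and Klf4) were above background, and of 5 blood cell markers found in the table, 2 (Cd68 and Itgam) were. Replicate 8 stood farthest from the other arrays. It held 63.9% of the squared loadings of the first principal component over the genes above background, and this component took 47.4% of their variance.

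p53 is a transcription factor that is kept scarce in unstressed cells by the ubiquitin ligase Mdm2 and accumulates after DNA damage and other stress, mainly through slower degradation of the protein. It binds DNA as a tetramer at elements made of a pair of decamers and raises transcription of genes for cell cycle arrest, repair, metabolism, cell death and its own restraint. In the nervous system p53 and its pro-apoptotic targets act in the developmental and injury-induced death of neurons, and Cdkn1a and Btg2 are linked to the exit of progenitors from the cell cycle.

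The DNA at the promoters of the genes was examined first, since p53 acts through it. RefSeq promoter windows (assembly GRCm38.p6, 250 bases before to 50 bases after a start) were available for 9 of the 10 genes; Trp53inp1 was not among them. Exact matches to the p53 consensus decamer, which has the same consensus on both strands so that 1 search covers both, lay in the windows of 5 of the 9 genes, namely Cdkn1a, Mdm2, Ccng1, Trp53 and Bax. The decamer lay in 9.55% of all 27025 genes with a window and in 8.24% of the 10095 of them that were above background on the arrays. Cdkn1a encodes the cyclin-dependent kinase inhibitor p21. It was the only one of the 9 with a pair of exact decamers at most 13 bases apart. Such a pair was found in 20 of the 27025 genes. Near matches were not searched, so one with a mismatch, such as the bases directly after the second Cdkn1a decamer, is not marked. Another Cdkn1a window, chr17:29093519-29093818 on the plus strand, held 0 decamers. The Cdkn1a pair, separated by 12 bases, is shown within its whole window, chr17:29090729-29091028 on the plus strand, with the decamers in capitals:
Cdkn1a promoter: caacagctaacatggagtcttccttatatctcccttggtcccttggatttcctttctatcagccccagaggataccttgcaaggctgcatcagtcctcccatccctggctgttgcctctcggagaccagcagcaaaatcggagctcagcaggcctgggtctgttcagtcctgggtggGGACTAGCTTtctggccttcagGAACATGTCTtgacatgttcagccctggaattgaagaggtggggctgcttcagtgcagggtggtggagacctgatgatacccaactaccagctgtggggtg

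The other 4 genes had a single decamer each, shown with 15 bases on either side and read along the strand of the gene, so that the differences between the matches can be seen. The windows are chr10:117710920-117710959 (minus strand) for Mdm2, chr11:40755447-40755486 (minus) for Ccng1, chr11:69580269-69580308 (plus) for Trp53 and chr7:45467075-45467114 (minus) for Bax. The decamers are in capitals and began 186, 185, 75 and 201 bases before the start, respectively:
Mdm2: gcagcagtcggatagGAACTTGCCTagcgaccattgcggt
Ccng1: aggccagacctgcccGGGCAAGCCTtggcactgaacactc
Trp53: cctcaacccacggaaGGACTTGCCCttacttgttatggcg
Bax: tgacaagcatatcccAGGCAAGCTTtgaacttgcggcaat
The windows of Btg2, Bbc3, Phlda3 and Fas held no exact match. A match is a description of the letters in these windows. The arrays measured RNA and hold no value for binding at these places.

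Every one of the 10 genes was expressed above background in these cultures. Background was set at a mean log2 intensity of 7.47, the 95th percentile of 1032 olfactory receptor genes, which are little used outside olfactory tissue. All 10 genes passed it as means and on each of the 6 arrays, where 65.2% of all genes passed as means. Fas, the death receptor of the CD95 pathway, was closest to it, 0.53 log2 units above, and the other 9 genes were at least 2.03 log2 units above. At a stricter background, the 99th percentile, 9 of the 10 genes passed and Fas did not. A lower share of expressing cells and less RNA per cell cannot be told apart in these bulk samples. An intensity also depends on the probes of a gene, so levels are compared between arrays for 1 gene and never between genes.

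Trp53 itself varied least. Its log2 intensity was 10.91, 11.09, 11.11, 11.08, 10.98 and 11.12 in replicates 2, 4, 5, 6, 7 and 8, in that order, which is kept below. Replicates 2 and 7 were low and the other 4 lay close together above them. The mean was 11.05 ± 0.084 (SD, n = 6), and the highest array was 1.15-fold above the lowest. RefSeq lists a pseudogene, Trp53-ps, and signal of near-identical sequence could be shared with it. Mdm2, the ubiquitin ligase that marks p53 for degradation and is itself induced by p53, had log2 intensities of 10.18, 10.33, 10.19, 10.31, 10.19 and 10.40. Its replicates fell into 3 low arrays (2, 5 and 7) and 3 higher ones (4, 6 and 8), with a mean of 10.27 ± 0.094 (SD, n = 6).

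Replicate 4 was the highest array for Cdkn1a, Ccng1, Btg2 and Trp53inp1, and Cdkn1a and Trp53inp1 had the largest SDs of the 10 genes. Cdkn1a measured 10.72, 10.98, 10.69, 10.88, 10.40 and 10.71, a mean of 10.73 ± 0.198 (SD, n = 6). Replicate 4 was the highest and replicate 7 the lowest, 1.49-fold apart, the widest range of the 10 genes. Ccng1, which encodes cyclin G1, a partner of protein phosphatase 2A that acts on Mdm2, measured 11.96, 12.18, 12.10, 12.11, 11.82 and 11.91, a mean of 12.01 ± 0.138 (SD, n = 6). Replicates 4, 5 and 6 lay above replicates 2, 7 and 8. Btg2, an antiproliferative regulator of mRNA decay that is expressed in neurogenic progenitors, measured 10.52, 10.69, 10.51, 10.63, 10.45 and 10.63, a mean of 10.57 ± 0.093 (SD, n = 6). Trp53inp1, a stress protein that assists p53 and autophagy, measured 10.17, 10.57, 10.30, 10.23, 10.04 and 10.41, a mean of 10.29 ± 0.186 (SD, n = 6). Replicate 7 was the lowest array for all 4 of these genes.

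The genes of cell death and survival signalling did not share that order. Bax, which forms pores in the outer mitochondrial membrane, measured 9.77, 9.73, 10.10, 9.79, 9.74 and 9.63, a mean of 9.79 ± 0.158 (SD, n = 6). Phlda3, a protein that competes with the kinase Akt for membrane lipids, measured 9.88, 9.90, 10.10, 9.90, 9.84 and 9.84, a mean of 9.91 ± 0.095 (SD, n = 6). In both genes replicate 5 stood apart at the top by Dixon's ratio of the gap to the range, as an array did in 6.97% of all genes above background, and without it their SDs fell to 0.0609 for Bax and 0.0307 for Phlda3. Bbc3, which encodes the BH3-only protein PUMA, measured 9.47, 9.35, 9.65, 9.72, 9.53 and 9.28, a mean of 9.50 ± 0.170 (SD, n = 6). Fas measured 7.95, 7.96, 7.96, 8.13, 8.21 and 7.80, a mean of 8.003 ± 0.147 (SD, n = 6). Replicate 8 was the lowest array for Bax, Bbc3 and Fas. The arrays' own lower quartile of intensity was also lowest on replicate 8, 109.3 against 120.8 to 129.4 on the other 5, and its part in the low values of Bbc3 and Fas was not tested.

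**Figure D1:**
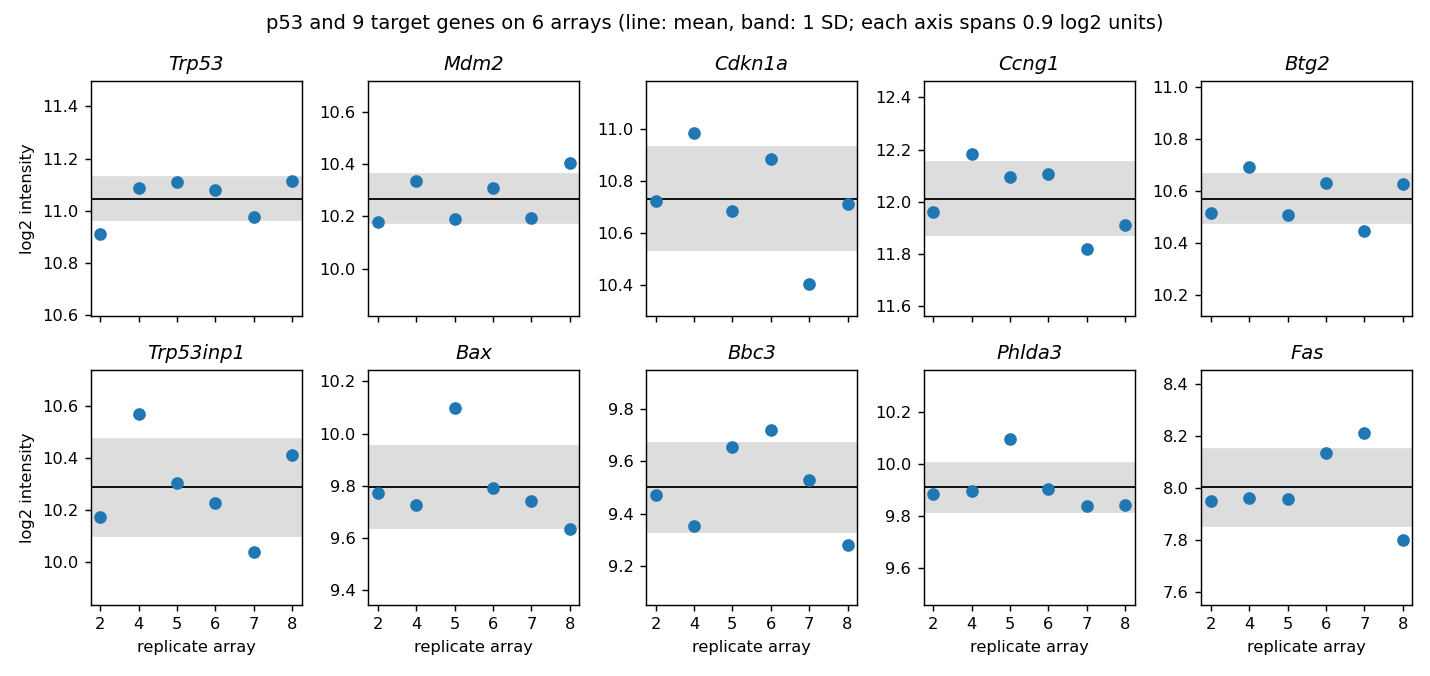
Each panel plots the log2 intensity of 1 gene (vertical axis) on the 6 replicate arrays (horizontal axis), with the mean as a line and 1 SD as a grey band, and all vertical axes span the same range. Replicate 4 is the highest and replicate 7 the lowest array for Cdkn1a, Ccng1, Btg2 and Trp53inp1, whereas replicate 5 stands apart for Bax and Phlda3.

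The spread of these genes was large for genes of their level. The median SD over the 10 genes was 0.143 log2 units (range 0.084 to 0.198), against 0.076 over the 12793 genes above background. Low genes spread more than high ones, so the genes above background were divided into 4 bins of equal number by level, with median SDs of 0.111, 0.0783, 0.0689 and 0.0582 from low to high. All 10 genes lay above the median SD of their bin, where 50% of all genes lie by construction. The SD of Cdkn1a was 3.40 times that of its bin and lay at the 98.6th percentile in it, followed by Trp53inp1 at the 98.2nd and Bbc3 at the 95.9th, and Fas was lowest at the 72.2nd. An SD over 0.1 was seen in 6 of the 10 genes and in 31.2% of all genes above background. The count of genes above their bin was 8 without replicate 5 and 9 without replicate 2. Pathways other than p53 reached the same share: all 12 genes of a list of the integrated stress response (such as Atf4, Ddit3 and Asns) also lay above their bins, with a median SD of 0.135.

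**Figure D2:**
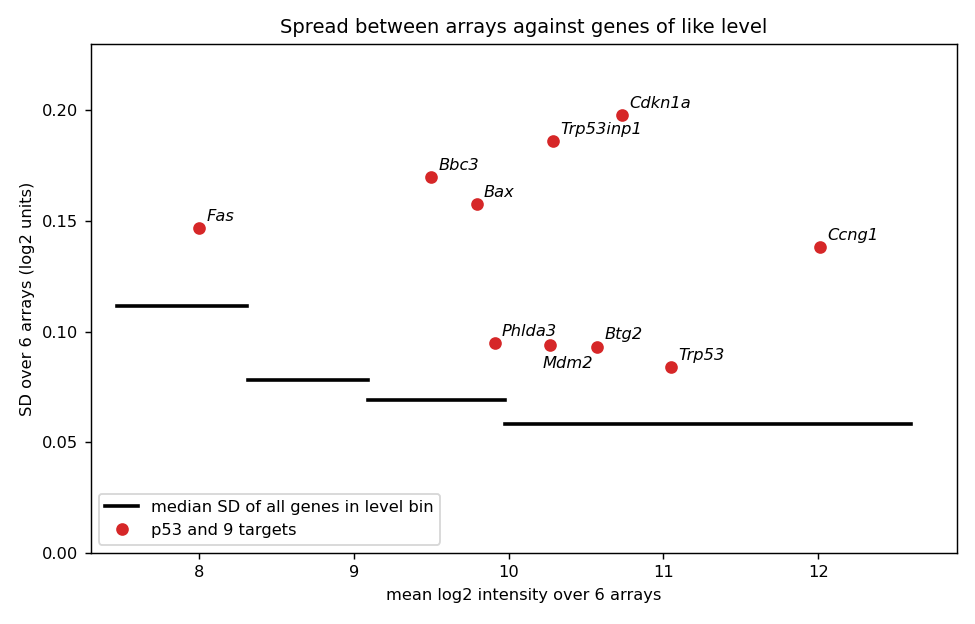
The SD over 6 arrays (vertical axis, log2 units) is plotted against the mean log2 intensity (horizontal axis) for p53 and the 9 targets, with a black line for the median SD of all genes in each of 4 level bins. Every red point lies above the line of its bin, with Cdkn1a and Trp53inp1 highest.

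The 10 genes did not rise and fall as a single set. Over the 6 arrays, Pearson's r of their 45 pairs ranged from -0.67 (Trp53inp1 with Fas) to 0.96 (Bax with Phlda3), with a median of 0.22, and 27 pairs were above 0. An r of at least 0.8 was found in 5 of the 45 pairs (11.1%), against 5.19% of all pairs of genes above background, and an r of at most -0.8 in 0 pairs, against 4.63%. The 5 pairs were Cdkn1a with Btg2, Cdkn1a with Ccng1, Trp53inp1 with Btg2, Mdm2 with Btg2, and Bax with Phlda3. The count changed with the array left out, and the share over all pairs rose with 5 arrays. The number was 3 (6.67%) without replicate 4, against 8.07% of all pairs, 10 (22.2%) without replicate 5, against 8.46%, and 8 (17.8%) without replicate 8, against 6.63%. It was 5 (11.1%) without replicate 2, against 8.14%, 7 (15.6%) without replicate 6, against 7.23%, and 4 (8.89%) without replicate 7, against 7.54%. Cdkn1a with Btg2 and Mdm2 with Btg2 kept an r of at least 0.82 whichever array was left out. Trp53 had an r of 0.67 with Mdm2 and with Trp53inp1, 0.59 with Btg2, 0.50 with Ccng1, 0.43 with Cdkn1a and -0.34 with Fas. It was in none of the 5 pairs.

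Each relation was tested by an exact two-sided permutation test over the 720 pairings of 6 arrays, and p-values were adjusted by the Benjamini-Hochberg method over all 127875 relations of the 10 genes with the genes above background. None passed at an adjusted p of 0.05: the smallest was 0.592 by Pearson's r and 0.661 by Spearman's rho. At an unadjusted exact p of 0.05, 9380 relations (7.34%) passed by Pearson's r and 5873 by Spearman's rho. The smallest p that 6 arrays allow is 0.00139, and 300 relations reached it, so the correlations are given as descriptions of these arrays. For Cdkn1a with Btg2, r was 0.89 (exact permutation p = 0.0125, adjusted 0.607) and rho 0.94 (exact p = 0.0167, adjusted 0.688), and r was 0.63 without replicates 4 and 7, which lay farthest from the Cdkn1a median. For Cdkn1a with Ccng1, r was 0.87 (exact permutation p = 0.0208, adjusted 0.623) and rho 0.83 (exact p = 0.0583, adjusted 0.746), and r fell to 0.48 without the same arrays. With 1 array left out, r was at least 0.82 for Cdkn1a with Btg2 and at least 0.74 for Cdkn1a with Ccng1. Both relations were weaker without replicates 4 and 7 together. Leaving out both extreme arrays also narrows the range, so it cannot show that the relations rested on them.

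The other pairs behaved in different ways when arrays were left out. For Trp53inp1 with Btg2, r was 0.85 (exact permutation p = 0.0361, adjusted 0.644) and rho 0.71 (exact p = 0.136, adjusted 0.801), and r fell to 0.42 without replicates 4 and 7. For Mdm2 with Btg2, r was 0.85 (exact permutation p = 0.0611, adjusted 0.684) and rho 0.60 (exact p = 0.242, adjusted 0.846), and r was 0.88 without replicates 4 and 8, so this pair did not rest on them. For Bax with Phlda3, r was 0.96 (exact permutation p = 0.0278, adjusted 0.630) and rho 0.71 (exact p = 0.136, adjusted 0.801), and r fell to 0.37 without replicates 5 and 8. Without replicate 5 alone, r was 0.62. Leaving out this highest array of both genes also narrows their range, so it cannot show how far the relation rested on it. Bbc3 and Fas followed the component on which replicate 8 stood apart, with an r of -0.89 and -0.83 with its loadings, against 0.17 for Cdkn1a.

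**Figure D3:**
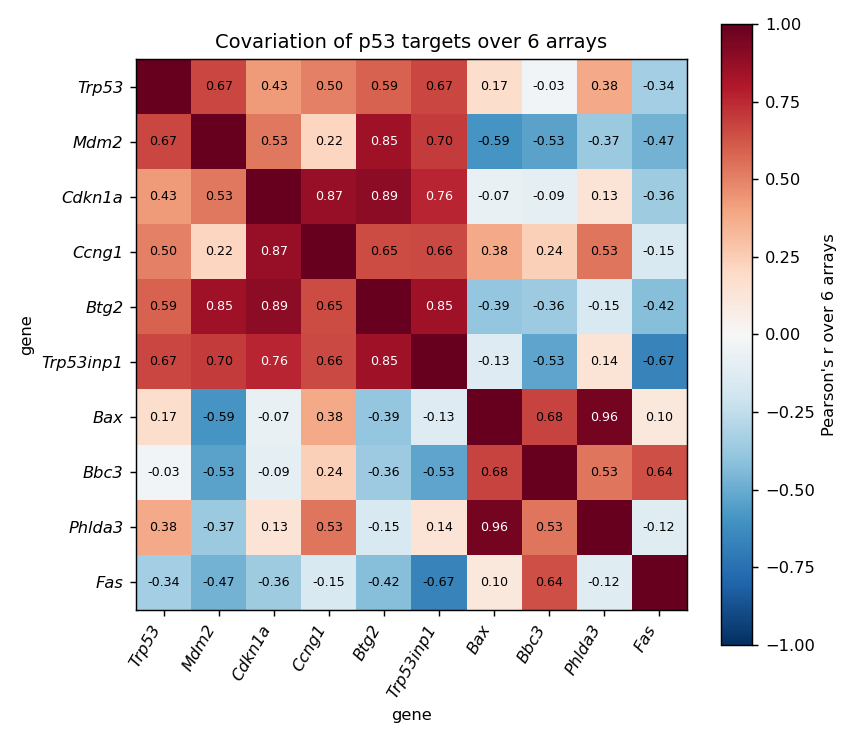
The map gives Pearson's r over 6 arrays for each pair of the 10 genes, red for positive and blue for negative values. A block of positive values joins Mdm2, Cdkn1a, Ccng1, Btg2 and Trp53inp1, in which r lies between 0.22 and 0.89. Trp53 also has positive values, from 0.43 to 0.67, with every gene of that block. Bax, Bbc3 and Fas have values near 0 or below it with most of the block.

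**Figure D4:**
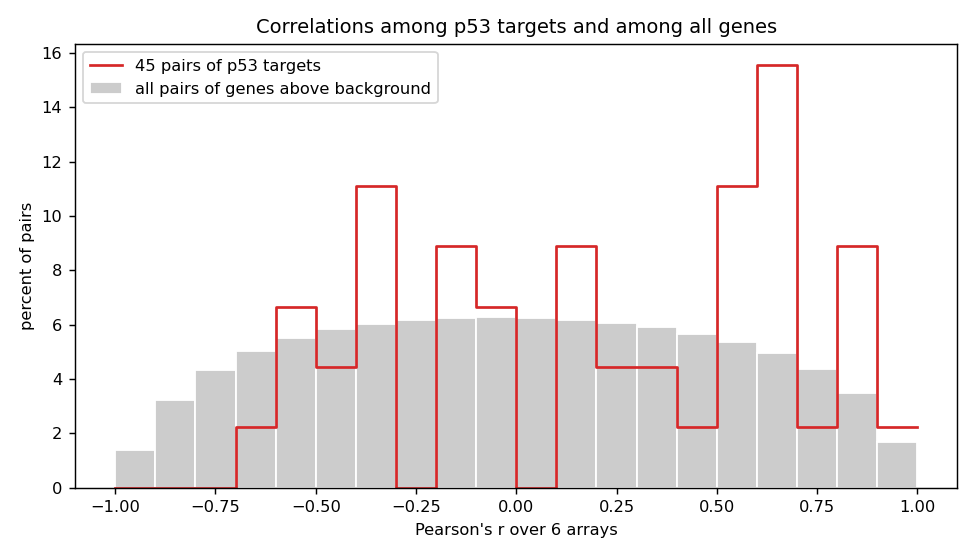
The percentage of gene pairs (vertical axis) is plotted by Pearson's r over 6 arrays (horizontal axis, bins of 0.1), as grey bars for all pairs of genes above background and as a red line for the 45 pairs of p53 and its targets. The red line rises farthest above the bars between 0.6 and 0.7, and holds no pair below -0.7.

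Further genes of the p53 pathway were examined through a list of 40 other targets, of which 37 were above background. Gdf15, a stress-induced cytokine (7.15 ± 0.228, SD, n = 6), and Ptprv and Cd80 were not. Their spread was close to that of other genes of their level: 20 of the 37 (54.1%) lay above the median SD of their bin. Eda2r, a death-domain receptor of the tumour necrosis factor receptor family, spread most, with log2 intensities of 8.01, 8.47, 8.14, 8.21, 7.72 and 7.96 and a mean of 8.08 ± 0.254 (SD, n = 6). Replicate 4 was its highest array and replicate 7 its lowest, 1.68-fold apart. Ei24, an endoplasmic reticulum protein, spread least, at 11.29 ± 0.031 (SD, n = 6). Sesn2, a sestrin that restrains growth signalling and also stands on the integrated stress list, was at 10.92 ± 0.120. Pmaip1, which encodes the BH3-only protein NOXA, went the other way from Eda2r, with its lowest value on replicate 4 (7.38) and its highest on replicate 2 (7.85). The mean of Pmaip1, 7.66, was close to the background of 7.47, and its value on replicate 4 lay below it.

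The order of replicates 4 and 7 recurred among these targets. Among the genes above background, 4.72% were highest on replicate 4 and lowest on replicate 7. That order was found in 4 of the 10 genes and in 10 of the 37 other targets (27.0%), namely Eda2r, Gadd45a, Zmat3, Tnfrsf10b, Plk3, Psrc1, Apaf1, Polk, Ercc5 and Tap1. Gadd45a, a growth arrest and repair factor, was 1.52-fold higher on replicate 4 than on replicate 7, Psrc1 1.34-fold and Zmat3, an RNA-binding protein, 1.26-fold. Of the 37, 14 were highest on replicate 4 and 12 on replicate 5, against 14.7% and 20.4% of all genes above background. Replicate 7 was lowest for 15 and replicate 8 for 12, against 17.9% and 26.4%. Replicates 4 and 7 were picked after the values of both lists had been seen, so the shares are descriptions and have no test. Other gene lists moved between the same 2 arrays: all 12 integrated stress genes were higher on replicate 4 than on replicate 7, with a median difference of 0.22 log2 units, beside 25 of the 37 other targets (median 0.11) and 52.2% of all genes above background (median 0.01). All 5 non-neural markers above background were lower on replicate 4, with a median difference of -0.13, as were 4 of 5 glial markers. Motor neuron markers were split, 4 of 8 higher. Of the lists taken up below, 17 of 20 p53 regulators (median 0.09) and 12 of 16 apoptosis genes (median 0.02) were higher on replicate 4. So were 7 of the 10 genes (median 0.13), 10 of 19 cell cycle genes (median 0.01) and 2 of 7 proliferation markers (median -0.03). The part of cell makeup and of other stress pathways in the order of the p53 targets was not tested.

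**Figure D5:**
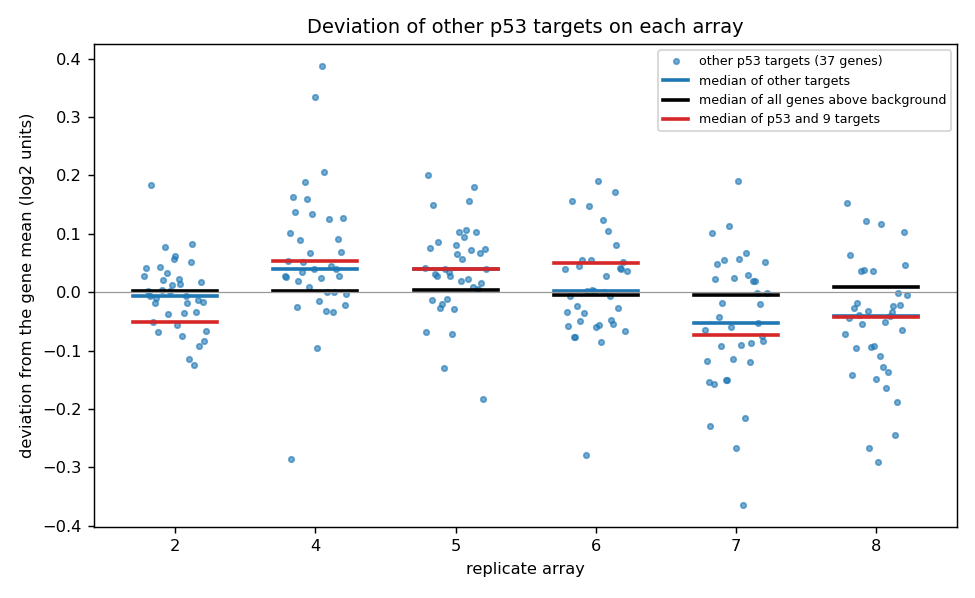
Deviations of 37 other p53 targets from their own means (vertical axis, log2 units) are plotted for each replicate array (horizontal axis), with medians of these targets in blue, of p53 and 9 targets in red and of all genes above background in black. Medians of the other targets run from 0.04 on replicate 4 to -0.05 on replicate 7, with 0.04 on replicate 5 and -0.04 on replicate 8. Those of all genes stay within 0.01 of 0.

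The regulators that act on p53 spread little. Of 22 genes of a list of kinases, ubiquitin ligases and cofactors, 20 were above background and 7 of these lay above the median SD of their bin. Crebbp, an acetyltransferase that serves as a cofactor of p53, spread least at 11.20 ± 0.019 (SD, n = 6), and Cdkn2a, which encodes the Mdm2 inhibitor p19Arf and the kinase inhibitor p16, spread most at 8.32 ± 0.134. Mdm4, the paralogue of Mdm2 that holds p53 inactive, was at 10.18 ± 0.054. Trp63 and Trp73, the paralogues of Trp53, were below background, at 6.77 ± 0.188 and 7.37 ± 0.155. On replicate 8, the array that stood farthest from the others, 11 of the 20 regulators had their highest value, against 27.5% of all genes above background, and on replicate 7, 11 had their lowest, against 17.9%.

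The partners through which the targets act were mostly expressed. Of the apoptosis genes, 16 of the 19 in the table were above background, and Fasl, Fadd and Casp8, the ligand, adaptor and initiator caspase of the Fas pathway, were not, at mean log2 intensities of 6.37, 7.45 and 6.51. Bak1, the paralogue of Bax, hardly varied, at 8.93 ± 0.015 (SD, n = 6), against 0.158 for Bax. Cycs, cytochrome c, spread most of this list at 11.65 ± 0.293, with replicate 5 highest as in Bax. The anti-apoptotic genes Bcl2l1 and Mcl1 were at 9.54 ± 0.107 and 9.89 ± 0.083. All 19 cell cycle genes were above background, from Rbl1 at 9.53 ± 0.029 to E2f1 at 9.43 ± 0.188 by spread. Among the kinases that p21 inhibits and its partners, Cdk2 was at 9.22 ± 0.057, Cdk4 at 13.56 ± 0.032 and the replication clamp Pcna at 11.25 ± 0.077. Cdkn1b and Cdkn1c, the paralogues of Cdkn1a, were at 10.49 ± 0.086 and 10.23 ± 0.151, and replicate 7 was the lowest array for Cdkn1b, as for Cdkn1a, but not for Cdkn1c. Of the remaining paralogues, Phlda2 spread most (8.25 ± 0.155), beside Phlda1 (9.97 ± 0.133), Ccng2 (9.50 ± 0.090), Trp53inp2 (11.17 ± 0.065), Btg1 (10.92 ± 0.043), Btg3 (9.31 ± 0.091) and Tob1 (10.10 ± 0.099).

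Relations with these lists were counted in the same way. An r of at least 0.8 with one of the 10 genes was found in 8.11% of the 370 relations with other targets, 7% of 200 with regulators, 4.38% of 160 with apoptosis genes, 3.16% of 190 with cell cycle genes and 2.5% of 120 with integrated stress genes, against 5.19% of all pairs. Over all 13 lists, 29 of 1410 relations (2.06%) had an r of at least 0.9 in size, 18 of them positive, against 3.08% of all pairs of genes above background, so values of this size were no more frequent here than among all genes. Ccng1 had an r of 0.97 with Eda2r, 0.93 with Psrc1 and 0.93 with Tap1, and Cdkn1a had 0.94 with Eda2r and 0.91 with Plk3. Btg2 had 0.90 with Apaf1, which encodes the scaffold of the apoptosome, and Trp53inp1 had 0.92 with Ercc5. Mdm2 had 0.95 with Ep300, an acetyltransferase that binds p53. Bbc3 had 0.95 with Bad, a BH3-only protein, 0.94 with Cdkn2a and -0.90 with Atm, the kinase of double-strand breaks. Fas had 0.93 with Sfn, 0.94 with Phlda1, -0.98 with Ckap2, -0.97 with Chek1, -0.94 with Prkdc and -0.91 with Cdk2. The mean levels of Bad and Sfn, 7.52 and 7.56, were close to the background of 7.47.

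The remaining relations of that size fell on Phlda3, Bax and marker genes. Phlda3 had an r of 0.94 with Ccnd2, 0.92 with Hrk, -0.94 with Diablo and -0.93 with Ddb2, and Bax had -0.92 with Ddb2 and -0.91 with Rbl2. Ddb2, at a mean of 7.53, was also close to background. Among markers, Trp53 had 0.91 with Cd68, Bbc3 0.93 with Col3a1 and 0.91 with Itgam, Ccng1 -0.91 with Isl1, and Fas -0.94 with Sox1. Over the 29 relations, exact permutation p ran from 0.00139 to 0.0431 for r and from 0.00278 to 0.103 for rho, whose size was 0.77 to 1, and the adjusted p was at least 0.592. With the 2 arrays left out that lay farthest from the member's median, 13 of the 29 fell below 0.8 in size or changed sign. Diablo with Phlda3 changed sign, to 0.27. Scaling of the arrays also changed some values: r of Ccng1 with Tap1 was 0.62 after quantile normalization. With each array centred on its median, r of Ccng1 with Isl1 was -0.75.

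The genes whose pattern over the 6 arrays was most like that of each of the 10 were found among all 12793 genes above background. Trp53 was nearest to Sfpq, Gm16488 and Fbxw9 (r 0.98 to 0.99), and Mdm2 to Sec24a, Vprbp and Scaf8 (0.99 each). Cdkn1a was nearest to Rpusd4, Slc25a39 and Plag1 (0.97 to 0.99), Ccng1 to Hif1a, Vstm2b and Srfbp1 (0.98 to 0.99), Btg2 to Arfgap3, Kdm6a and Fzd7 (0.98 to 0.99) and Trp53inp1 to Gnl3, Nuak2 and Rbbp8 (0.98 each). No member was among the 3 nearest genes of another. Bax was nearest to Zfp524, 1110032F04Rik and Gdnf (0.99 each), Phlda3 to Tmem9b, Hist1h2bl and Hras1 (0.99 each), Bbc3 to Tbc1d2, Spata18 and Ftcd (at least 0.99 each) and Fas to Olfr1320, Sdsl and Pfkfb4 (at least 0.99 each). The mean levels of Tbc1d2 (7.78), Spata18 (7.72), Ftcd (7.66), Sdsl (7.72) and Gm16488 (7.70) were close to the background of 7.47. Olfr1320 is itself among the olfactory receptor genes from which that background was set. Over these 30 relations exact permutation p for r was 0.00139 to 0.00972 and the adjusted p 0.592 to 0.607, and rho was 0.77 to 1 (exact p 0.00278 to 0.103, adjusted 0.661 to 0.792). With the 2 arrays left out that lay farthest from the member's median, r was at least 0.49 and lay below 0.8 in 4 of the 30. Scaling of the arrays changed some values. With each array centred on its median, r of Ccng1 with Hif1a was 0.65. After quantile normalization, r of Cdkn1a with Rpusd4 was 0.78. With 6 arrays and this many genes, such values are the highest of many and carry no test of likeness.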

How the data were processed

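Total RNA of 6 cultures was hybridised to Affymetrix mouse exon arrays. Per the methods, the authors obtained the deposited intensity values, linear and 1 per gene and array, by Robust Multi-array Averaging in Aroma Affymetrix and averaged all exons of a gene. The submitters' processing notes name Affymetrix Expression Console and RMA. The genome build, the arrays normalized together with these 6, and whether these had passed the study's screen for outlying arrays are not given in the sources used here. The table held 0 columns of other samples. Arrays give no depth, so their number limits the precision.

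Log2 values were taken without a pseudocount (Python 3.11.15, NumPy 2.4.6, pandas 2.3.3, SciPy 1.17.1, Matplotlib 3.10.9). Errors are SDs over arrays. Relations were tested by exact permutation of 720 pairings, with Benjamini-Hochberg adjustment over all relations at 0.05. The code was tested on simulated data. The genes and lists were chosen with earlier results of these data known. Named were the 10 genes, the 3 genes nearest to each by r, paralogues, direct partners, the genes of largest and smallest SD in each list, and list genes with an r of at least 0.9 in size, of which 1 is not reported here. Bcl2 and Hba-a1 were not analysed here. Alternatives were median centring, quantile normalization, a stricter or no background filter, Spearman's rho, removal of the first principal component, the coefficient of variation and leaving out each array.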

Additional observations from a re-analysis of the deposited data

Results flagged for a closer look

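The replicate 5 values of 2 of the 10 genes stood apart from the other 5 arrays by Dixon's ratio, which divides the gap to the nearest array by the whole range. The ratio was 0.661 for Bax and 0.743 for Phlda3, both highest on replicate 5, above the 95% critical value for 6 arrays. Chance marks about 1 in 20 genes in this way, and 6.97% of all genes above background had an array that stood apart. No explanation of these values was tested.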

How the results depend on the processing

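The number of the 10 genes above background was 9 or 10 under every alternative tried, and their median SD was 0.128 to 0.143 under the other scalings and filters and 0.115 to 0.157 with an array left out. The mean levels moved by less than 1 SD in all 80 alternatives. Median centring keeps each mean by construction, and leaving out 1 of 6 arrays cannot move a mean by 1 SD. For those alternatives the outcome was therefore fixed in advance and says nothing about stability. The number of pairs with an r of at least 0.8 was 5 under median centring (where 7.66% of all pairs passed), quantile normalization (4.27%), the stricter background (4.65%) and no filter (6.08%), 3 by Spearman's rho (4.52%), 8 after removal of the first principal component (6.17%), and 3 to 10 with an array left out (6.63% to 8.46%). Pairs with an r of at most -0.8 numbered 2 after removal of the first principal component, where 6.07% of all pairs passed. They numbered 1 without replicate 2 (7.51%), 4 (7.54%) or 6 (6.69%), and 0 in the other settings. The cause of these changes was not tested. The 0 adjusted calls say nothing about stability, since 720 pairings, or 120 with 5 arrays, bound the p-values; unadjusted, 4.57% to 7.99% of relations passed under the alternatives run, which did not include removal of the first principal component. The following counts were added after seeing the data: the genes with an SD above that of their level bin numbered 8 to 10, and the other targets highest on replicate 4 and lowest on replicate 7 numbered 7 to 13. No paired analysis was possible because all arrays belong to a single group. The number of arrays, 6, limits every correlation, and intensities near background, as for Fas, limit what the arrays can show of low genes.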

Other observations

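The lists of cell types and of the integrated stress response that were set beside the p53 targets differed in their own spread between arrays. Values are mean log2 intensities ± SD over 6 arrays. Among motor neuron markers, the choline transporter Slc5a7 spread most (8.99 ± 0.223) and the axon guidance factor Slit2 least (12.70 ± 0.034). Among markers of motor neuron progenitors these were Olig2 (9.0004 ± 0.147) and Nkx6-2 (9.79 ± 0.031). The proliferation markers spread little, from Top2a (10.75 ± 0.026) to Mki67 (10.62 ± 0.083). Of the pluripotency markers above background, Klf4 was at 8.16 ± 0.170 and Nanog at 8.94 ± 0.125. Glial markers ran from Fabp7 (13.90 ± 0.053) to Gfap (7.55 ± 0.152) by spread, and non-neural markers from Gata6 (8.07 ± 0.106) to smooth muscle actin, Acta2 (8.02 ± 0.310), which was highest on replicate 7. The blood cell markers Cd68 (8.31 ± 0.078) and Itgam (8.05 ± 0.083) were below the median SD of their level bins. Among integrated stress genes, the transcription factor Atf3 spread most (9.72 ± 0.181) and the pseudokinase Trib3 least (10.001 ± 0.086), and both were highest on replicate 4.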
